A study of Homo sapiens with 12 samples.

Results

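The genes described here encode the hnRNP family and related RNA-binding proteins, 34 genes chosen by name out of the 62703 in the count table, with HNRNPU and its paralogues left out. The choice followed no measured value, though it was made with earlier results of these data known. It covers the A/B, C, F/H, K, PTB and L, and M, R and Q types of hnRNP gene, RBMX with the cold-inducible proteins CIRBP and RBM3, the FET proteins EWSR1 and TAF15 with TARDBP, and binders of AU-rich RNA with KHDRBS1. The RNA came from HCT116 cells, an established human colorectal cancer line, transfected for 48 h with control siRNA (labelled wild-type) or with siRNA against hnRNP U (labelled HNRNPU silencing). From both, total RNA and heavy polysomal (HP) RNA were sequenced, HP RNA being what sedimented with many ribosomes in a sucrose gradient of cells treated with cycloheximide. Each of the 4 groups had 3 libraries, from independent experiments by the study's account. The sources used here do not say which of the 2 hnRNP U siRNAs that the methods list was used.

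hnRNPs bind nascent pre-mRNA in the nucleus through RRM, quasi-RRM or KH domains, and they take part in splicing, export, decay and translation of the mRNAs they coat. Many of them shuttle between nucleus and cytoplasm. Several control their own level through an exon or intron whose inclusion sends their own mRNA to nonsense-mediated decay, so that transcripts of these genes are often a mixture of coding and non-coding forms.

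The silencing was seen in every library, since HNRNPU had 992, 1106 and 986 CPM (counts as a share of the library, with TMM scaling) in total RNA with control siRNA and 168, 149 and 160.4 CPM with hnRNP U siRNA, and 1022, 1145 and 1074 against 82.4, 75.2 and 77.1 CPM in HP RNA. Library totals ran from 30305012 to 39761103 counts, and every one of the 34 genes passed the filter on low counts that left 15920 genes. Of the 7 markers of colorectal epithelium, 1 was at 0 in every library and they summed to 3995 to 7508 CPM, those of fibroblasts (5 genes, 2 of them at 0 in every library) to 6.46 to 18.4 CPM, while those of leukocytes (4 genes) summed to at most 0.386 CPM and of endothelium (3 genes) to at most 0.429 CPM. Of the epithelial markers 2 had a mean under 1 CPM. Of the fibroblast markers 4 did, so that their sum came mostly from the remaining gene. The fibroblast sum had means of 17.5 and 10.7 CPM in total RNA with control and hnRNP U siRNA. In HP RNA the means were 14.8 and 7.29 CPM. The part of this sum in the results was not tested. MALAT1 and NEAT1, RNAs kept in the nucleus, summed in control cells to a mean of 108 CPM in total RNA and 19.6 CPM on heavy polysomes, and after silencing to 146 and 30.5 CPM. CPM is a share of a library, so that in these bulk samples less RNA per cell and fewer cells with that RNA cannot be told apart.

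Sequence features of the transcripts are given first, because hnRNP U was studied as a binder of RNA G-quadruplexes (RG4s) and because a transfected siRNA can bind mRNAs through its seed. An RG4 motif, 4 tracts of 3 or more G separated by 1 to 7 bases on the transcript strand, was in the canonical transcript of 8 of the 34 genes, against 26.7% of 12758 tested protein-coding genes. By region it was in the 5′ UTR of 0 genes (8.46% of all), in the coding sequence of 1 gene, KHDRBS1 (6.93% of all), and in the 3′ UTR of 7 genes (15.9% of all). Among the 7 were HNRNPK, HNRNPA1, TAF15, PTBP1, KHSRP and RBM3, and motifs of at most 30 bases in 5 of them are printed below from the GENCODE 44 transcripts (GRCh38), with the G runs in capitals. A separating base may itself be G, so that a long run can hold more than 1 tract.
HNRNPA1, chr12:54285857-54285884, plus strand: GGGGaggaggaGGGtggtGGGaggtGGG
HNRNPK, chr9:83969176-83969194, minus strand: GGGttGGGGGGGGGaaGGG
KHSRP, chr19:6413947-6413975, minus strand: GGGtGGGGGGGacttGGGGGcatgccGGG
RBM3, chrX:48581067-48581094, plus strand: GGGGGcGGGGGGGGGcGGGGGGaatGGG
TAF15, chr17:35847071-35847086, plus strand: GGGtGGGaGGGctGGG

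GTATGCT, which pairs with bases 2 to 8 of the guide strand of the first hnRNP U siRNA, occurred in 5 of the 34 3′ UTRs and in those of 7.29% of the 12758 genes. These are the sites, printed with the match in capitals and the coordinates of the match.
ELAVL1, chr19:7963019-7963025, minus strand: ttgtaagcgatGTATGCTttggttgacag
HNRNPA0, chr5:137751507-137751513, minus strand: cttttaatctaGTATGCTtaacttgatgt
HNRNPR, chr1:23310078-23310084, minus strand: aggagtatggaGTATGCTgtaaataaaaa
PTBP1, chr19:811602-811608, plus strand: ggtattaccttGTATGCTgttacttttat
RBMX, chrX:136873721-136873727, minus strand: gggtggttgggGTATGCTactcataagat

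For the second hnRNP U siRNA (TTGTAGT) 6 of the 34 genes held the guide-strand match, against 13.1% of all, and for the control siRNA (CCCAAAT) 6 genes did, against 15.2%. The sense strands gave matches in 8 (AGTTCTA, 11.3% of all), 1 (CTTTTCG, 2.58%) and 0 (GCCGGAC, 2.14%) of the 34. Of the 5 genes printed above, PTBP1, ELAVL1 and RBMX were lower and HNRNPR and HNRNPA0 were higher in total RNA after hnRNP U siRNA. The median log2 fold change in total RNA was −0.30 over these 5 and −0.12 over the other 29. For the guide match of the second hnRNP U siRNA it was −0.04 with the match and −0.17 without. The control guide gave −0.14 and −0.12. The sense strand of the first hnRNP U siRNA gave −0.21 and −0.11, and that of the second, with 1 gene, −0.30 and −0.12. With an RG4 motif anywhere the median was −0.17 (8 genes), without one −0.09 (26 genes). HNRNPDL and HNRNPH1 held none of the 6 seed matches in their canonical 3′ UTR, and FUBP1 held those of the sense strand of the first hnRNP U siRNA and of the control guide. The matches describe letters in 1 transcript per gene, and their part in the changes was not tested.

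Levels in control cells spanned a wide range, and are compared here per kb of canonical transcript (CPM per kb, total RNA, mean ± SD, n = 3). HNRNPA2B1 was highest at 449 ± 11.4 CPM per kb, followed by HNRNPK at 292 ± 9.62, and both stood apart from the next gene in every library. HNRNPAB (224 ± 6.68), HNRNPH1 (220 ± 14.5) and HNRNPA1 (215 ± 4.24 CPM per kb) came next, HNRNPAB overlapping HNRNPH1 and HNRNPH1 overlapping HNRNPA1. At the low end were PTBP3 (32.9 ± 1.14), FUBP1 (25.4 ± 1.91), RALY (21.7 ± 0.214) and HNRNPLL (15.3 ± 0.369 CPM per kb), of which none overlapped its neighbour. The order rests on 1 annotated length per gene, while the counts sum over all transcripts of the gene. Which forms were expressed was not tested, and the SDs hold only the spread between libraries. Of the 34 genes, 30 were among the 1000 genes with the highest mean CPM, and the lowest count of any of them in a library was 1991. Together they took 1.33% ± 0.0231 of all counts in total RNA with control siRNA and 1.22% ± 0.0265 with hnRNP U siRNA, and in HP RNA 2.10% ± 0.0153 and 1.88% ± 0.04 (SD, n = 3). The 3 libraries with hnRNP U siRNA were lower than the 3 with control siRNA in both kinds of RNA, at most 1.24% against at least 1.30% in total RNA and at most 1.92% against at least 2.08% in HP RNA. An exact permutation test of 3 against 3 cannot go below p = 0.1.

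After hnRNP U siRNA most of these mRNAs differed from control, more of them down than up, and most of the changes were small. In total RNA 7 of the 34 genes were higher and 18 were lower (adjusted p under 0.05 by edgeR's quasi-likelihood test), against 28.0% of all 15920 genes higher and 29.3% lower. On heavy polysomes 6 were higher and 17 lower, against 25.5% and 26.3% of all genes. The median log2 fold change of the 34 was −0.12 in total RNA and −0.11 in HP RNA, beside 0.00 and 0.01 over all genes. Because these genes are highly expressed, the same counts were taken over the 3103 genes with a mean of at least 75.9 CPM, the lowest of the 34. Of those 35.0% were higher and 29.7% lower in total RNA, and 31.0% and 26.6% in HP RNA, while 20.6% of the 34 genes were higher and 52.9% lower in total RNA, and 17.6% and 50% in HP RNA. The 3103 genes are not matched to the 34 in level, since 30 of the 34 were among the 1000 highest in mean CPM. In total RNA 29 of the 34 fold changes, and in HP RNA 28, were under 0.5 in size on the log2 scale. Of all 15920 genes, 11781 in total RNA and 11253 in HP RNA were under 0.5 as well. A change of at least 2-fold was called for HNRNPH3 upward and for FUBP1 downward, in both kinds of RNA, where 4.04% of all genes rose and 4.6% fell that much in total RNA and 5.15% and 4.77% in HP RNA. Many genes given below library by library were chosen for having the largest change in their type. Their lack of overlap between groups is thus no support beyond the test, and its share over all genes was not computed.

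**Figure D1:**
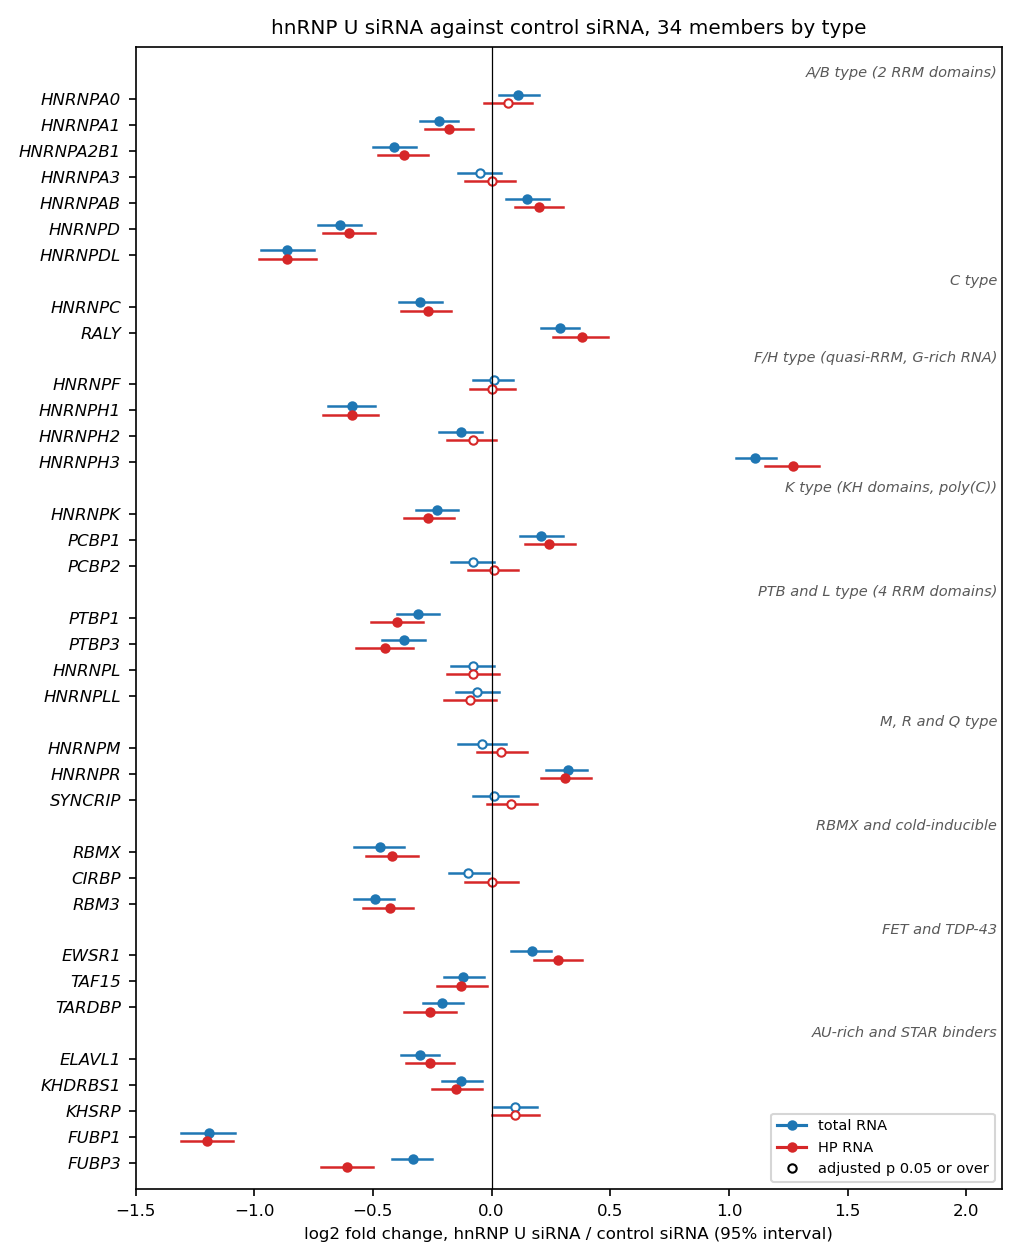
Log2 fold change of the 34 genes, hnRNP U siRNA over control siRNA, in total RNA (blue) and HP RNA (red), grouped by type; lines are 95% intervals and open circles are genes with adjusted p of 0.05 or over. HNRNPH3 stands alone on the right at 1.11 and 1.27, FUBP1 and HNRNPDL lie farthest to the left, and FUBP3 is the gene whose 2 values are farthest apart.

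Among the A/B type genes, which encode RRM proteins that bind exons and introns widely, 2 of 7 rose and 4 fell in total RNA, and 1 rose and 4 fell in HP RNA. HNRNPDL, the D-like protein, which controls its own mRNA through a spliced 3′ UTR, had the largest change. The gene (ENSG00000152795) lies at chr4:82422565-82430462 of GRCh38, minus strand. In total RNA HNRNPDL had 250.2, 239.9 and 229 CPM with control siRNA and 144, 125 and 127 CPM with hnRNP U siRNA. Its HP RNA values were 385, 379 and 368 CPM with control siRNA and 232, 206 and 201 CPM with hnRNP U siRNA. The groups did not overlap in either RNA, and the log2 fold change was −0.86 (SE 0.05, adjusted p = 7.5e-10 by edgeR) in total RNA and −0.86 (SE 0.06, adjusted p = 1.3e-09 by edgeR) in HP RNA. HNRNPD, also called AUF1, binds AU-rich elements and marks mRNAs for decay. The total RNA libraries had for HNRNPD 515, 519 and 487 CPM with control siRNA and 315, 338 and 323 CPM with hnRNP U siRNA. The HP libraries held 979, 989 and 983 CPM with control siRNA and 645, 712 and 638 CPM with hnRNP U siRNA. It was lower in every library with hnRNP U siRNA, with log2 fold changes of −0.64 (SE 0.04, adjusted p = 2.3e-09 by edgeR) and −0.60 (SE 0.05, adjusted p = 3.2e-08 by edgeR). HNRNPA2B1, the most abundant of the 34 in CPM, takes part in splicing and RNA transport. Total RNA held for HNRNPA2B1 1656, 1651 and 1582 CPM with control siRNA and 1269, 1233 and 1191 CPM with hnRNP U siRNA. On heavy polysomes the levels were 3301, 3376 and 3402 CPM with control siRNA and 2639, 2776 and 2547 CPM with hnRNP U siRNA. Again no library overlapped, and the log2 fold changes were −0.41 (SE 0.04, adjusted p = 4.3e-07 by edgeR) and −0.37 (SE 0.05, adjusted p = 3.7e-06 by edgeR).

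HNRNPAB went the other way. Levels of HNRNPAB in total RNA were 398, 407 and 383 CPM with control siRNA and 452, 444 and 427 CPM with hnRNP U siRNA. HP RNA gave 771, 764 and 761 CPM with control siRNA and 924, 922 and 863 CPM with hnRNP U siRNA. Its groups did not overlap in either RNA, and its log2 fold changes were 0.15 (SE 0.04, adjusted p = 0.0046 by edgeR) and 0.20 (SE 0.05, adjusted p = 0.0018 by edgeR). Counts of HNRNPD were 1.28 ± 0.0122 times those of HNRNPAB in total RNA with control siRNA and 0.738 ± 0.0357 times with hnRNP U siRNA (SD, n = 3), the counts of this closely related pair changing order. The values in HP RNA were 1.29 ± 0.0133 and 0.737 ± 0.0371. HNRNPA1, a splicing repressor with the same domain layout, also fell, at −0.22 in total and −0.18 in HP RNA (log2). HNRNPA3 passed the test in neither, at −0.05 (95% interval −0.14 to 0.04) and 0.00 (−0.11 to 0.10). HNRNPA0 passed in total RNA, at 0.11, a call that was lost when any of 4 libraries was left out (adjusted p up to 0.078 by edgeR), and had 0.07 in HP RNA.

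The C type genes moved in opposite directions. HNRNPC packages nascent transcripts and binds runs of U. In total RNA HNRNPC had 594, 589.5 and 550.3 CPM with control siRNA and 473, 479 and 462 CPM with hnRNP U siRNA. Its HP RNA values were 1067, 1035 and 989 CPM with control siRNA and 886, 904 and 828 CPM with hnRNP U siRNA. Its log2 fold changes were −0.30 (SE 0.04, adjusted p = 1.2e-05 by edgeR) and −0.27 (SE 0.05, adjusted p = 0.00023 by edgeR), with no overlap between the groups. RALY is its closest relative among the 34. The total RNA libraries had for RALY 136, 136 and 133 CPM with control siRNA and 165, 169 and 162 CPM with hnRNP U siRNA. The HP libraries held 234, 219 and 244 CPM with control siRNA and 305, 304 and 317 CPM with hnRNP U siRNA. RALY rose by 0.29 (SE 0.04, adjusted p = 7.9e-06 by edgeR) and 0.38 (SE 0.05, adjusted p = 1.3e-05 by edgeR) on the log2 scale, every library with hnRNP U siRNA being above every one with control siRNA of the same RNA. The ratio of RALY to HNRNPC counts went from 0.234 ± 0.00761 to 0.351 ± 0.00202 in total RNA and from 0.226 ± 0.0183 to 0.354 ± 0.0248 in HP RNA (SD, n = 3). RALY overlaps EIF2S2 on the opposite strand, and the strand setting of the counts is not given in the sources used here, so reads in the shared stretch may be assigned to either.

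The F/H type proteins bind G-rich RNA through quasi-RRMs and regulate splicing and poly(A) site use. HNRNPH3, a shorter member of this type, had the largest rise of the 34. The gene (ENSG00000096746) lies at chr10:68331174-68343193 of GRCh38, plus strand. Total RNA held for HNRNPH3 164, 171 and 159.7 CPM with control siRNA and 364, 363 and 348 CPM with hnRNP U siRNA. On heavy polysomes the levels were 279, 298 and 284 CPM with control siRNA and 715, 741 and 664 CPM with hnRNP U siRNA. All libraries with hnRNP U siRNA were above all with control siRNA of the same RNA, and the log2 fold changes were 1.11 (SE 0.04, adjusted p = 2.7e-12 by edgeR) and 1.27 (SE 0.05, adjusted p = 4.9e-12 by edgeR). It ranked 525 from the top of 15920 genes in total RNA and 569 in HP RNA. HNRNPH1 fell. Levels of HNRNPH1 in total RNA were 478, 530.1 and 471 CPM with control siRNA and 330, 332 and 325 CPM with hnRNP U siRNA. HP RNA gave 695, 781 and 702 CPM with control siRNA and 482, 518 and 478 CPM with hnRNP U siRNA. Its log2 fold changes were −0.59 (SE 0.05, adjusted p = 1.7e-08 by edgeR) and −0.59 (SE 0.06, adjusted p = 8.7e-08 by edgeR), again with no overlap. HNRNPH2 passed the test in total RNA at −0.13, a call lost without the third library of total RNA with hnRNP U siRNA (adjusted p = 0.053 by edgeR), and had −0.08 in HP RNA. HNRNPF had 0.01 (95% interval −0.08 to 0.09) and 0.00 (−0.09 to 0.10).

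The counts of HNRNPH3 were 0.335 ± 0.0113 times those of HNRNPH1 in total RNA with control siRNA and 1.09 ± 0.0166 times with hnRNP U siRNA. In HP RNA the ratio went from 0.396 ± 0.0123 to 1.43 ± 0.0457 (SD, n = 3), and no library of one siRNA overlapped those of the other. Of the 9 such pairs computed, none had overlapping groups in either RNA, and each gave an exact two-sided permutation p = 0.1, the smallest that 3 against 3 allows. The 9 pairs were picked by hand, and other relatives, such as PTBP1 and PTBP3, were not paired. No share over pairs of other genes was computed, so the count is not a trait of these genes.

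**Figure D2:**
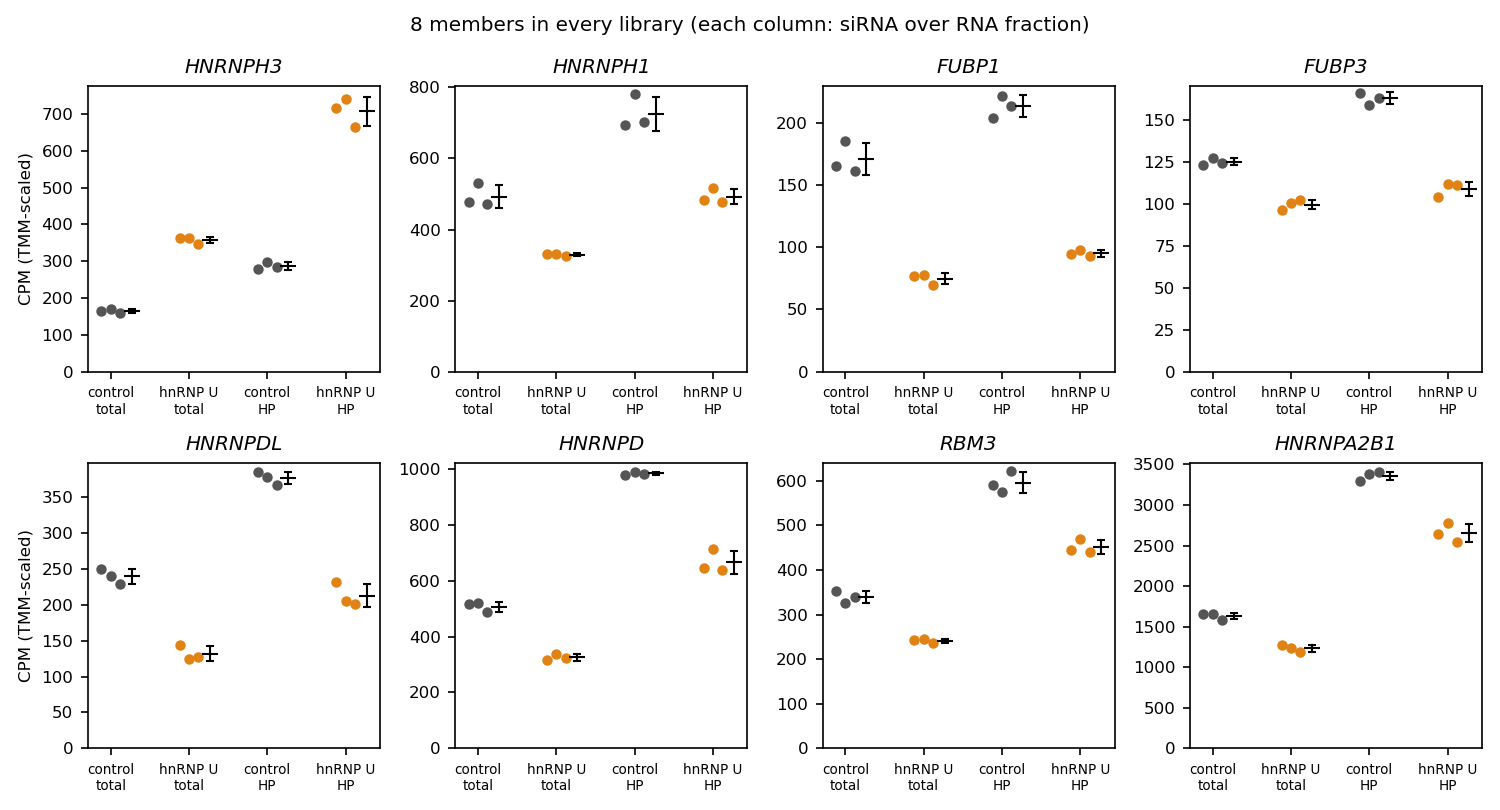
CPM of 8 of the genes in each of the 12 libraries, with control siRNA in grey and hnRNP U siRNA in orange; the bars beside the points are the mean and SD of 3 libraries and each vertical axis starts at 0. HNRNPH3 is higher with hnRNP U siRNA in total and HP RNA, and the other 7 genes are lower in both.

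The K type proteins bind C-rich RNA through KH domains. HNRNPK, which acts from transcription to translation, had a small decrease. In total RNA HNRNPK had 838, 872 and 817 CPM with control siRNA and 718, 739 and 703 CPM with hnRNP U siRNA. Its HP RNA values were 1368, 1380 and 1297 CPM with control siRNA and 1152, 1189 and 1104 CPM with hnRNP U siRNA. It was lower in every library with hnRNP U siRNA, with log2 fold changes of −0.23 (SE 0.04, adjusted p = 0.00017 by edgeR) and −0.27 (SE 0.05, adjusted p = 0.00021 by edgeR). PCBP1, an intronless gene whose protein binds poly(C), rose by 0.21 and 0.24 (log2). PCBP2, its relative with introns, passed in neither RNA, at −0.08 (95% interval −0.17 to 0.01) and 0.01 (−0.10 to 0.11), though with the replicate number as a block it was called lower in total RNA (adjusted p = 0.048 by edgeR). The named pseudogenes of PCBP2 had counts equal to 3.39% of its own, the highest share among the 18 of the 34 genes that have named pseudogenes.

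Of the PTB and L type genes, 0 of 4 rose and 2 fell in each RNA. PTBP1 binds pyrimidine tracts and represses exons, and it fell, at −0.31 in total and −0.40 in HP RNA (log2). PTBP3 is a paralogue of PTBP1. The total RNA libraries had for PTBP3 246, 235 and 229.6 CPM with control siRNA and 191, 178 and 181 CPM with hnRNP U siRNA. The HP libraries held 208, 210.3 and 191 CPM with control siRNA and 159, 148 and 149 CPM with hnRNP U siRNA. Its groups did not overlap, and its log2 fold changes were −0.37 (SE 0.04, adjusted p = 1.3e-06 by edgeR) and −0.45 (SE 0.06, adjusted p = 2.4e-06 by edgeR). HNRNPL and HNRNPLL, which bind CA-rich RNA, passed in neither, at −0.08 and −0.06 in total and −0.08 and −0.09 in HP RNA. Of the M, R and Q type, HNRNPR was the gene that was called. Total RNA held for HNRNPR 278, 292 and 275 CPM with control siRNA and 361, 351 and 345 CPM with hnRNP U siRNA. On heavy polysomes the levels were 461, 455 and 443 CPM with control siRNA and 584, 593 and 549 CPM with hnRNP U siRNA. It rose in both, with log2 fold changes of 0.32 (SE 0.04, adjusted p = 4.2e-06 by edgeR) and 0.31 (SE 0.05, adjusted p = 4.8e-05 by edgeR) and no overlap between groups. SYNCRIP, also known as hnRNP Q and the nearest relative of HNRNPR, had 0.01 (95% interval −0.08 to 0.11) and 0.08 (−0.02 to 0.19). HNRNPM, a splicing regulator, had −0.04 and 0.04.

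RBMX and the cold-inducible genes had 0 of 3 higher and 2 lower in each RNA. RBM3 is induced by mild cold and favours translation. Levels of RBM3 in total RNA were 352, 325 and 339 CPM with control siRNA and 243, 245 and 237 CPM with hnRNP U siRNA. HP RNA gave 590.1, 575 and 622 CPM with control siRNA and 446, 469.6 and 441 CPM with hnRNP U siRNA. RBM3 was lower in every library with hnRNP U siRNA, and its log2 fold changes were −0.49 (SE 0.04, adjusted p = 3.5e-08 by edgeR) and −0.43 (SE 0.05, adjusted p = 1.4e-06 by edgeR). RBMX, an X-linked splicing factor, also fell, at −0.47 and −0.42. CIRBP, the other cold-inducible gene, had −0.10 in total RNA (adjusted p = 0.053 by edgeR, and 0.017 with the replicate number as a block) and 0.00 (95% interval −0.11 to 0.11) in HP RNA. The ratio of RBM3 to CIRBP counts was 2.12 ± 0.0246 with control siRNA and 1.61 ± 0.0171 with hnRNP U siRNA in total RNA, and 2.06 ± 0.0233 and 1.53 ± 0.00694 in HP RNA (SD, n = 3).

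EWSR1, a FET protein that couples transcription and splicing, was the 1 gene of its group that rose. In total RNA EWSR1 had 301, 309 and 307 CPM with control siRNA and 351, 349 and 331 CPM with hnRNP U siRNA. Its HP RNA values were 479, 475 and 487 CPM with control siRNA and 597, 611 and 581 CPM with hnRNP U siRNA. The groups did not overlap, and the log2 fold changes were 0.17 (SE 0.04, adjusted p = 0.0019 by edgeR) and 0.28 (SE 0.05, adjusted p = 9.7e-05 by edgeR). TARDBP encodes TDP-43, which binds UG-rich RNA and lowers its own mRNA through its 3′ UTR. The total RNA libraries had for TARDBP 214, 231 and 224 CPM with control siRNA and 198, 194 and 189.9 CPM with hnRNP U siRNA. The HP libraries held 336, 358 and 339.7 CPM with control siRNA and 301, 306 and 279 CPM with hnRNP U siRNA. It was lower, with log2 fold changes of −0.21 (SE 0.04, adjusted p = 0.00043 by edgeR) and −0.26 (SE 0.05, adjusted p = 0.00049 by edgeR), and its groups did not overlap. TAF15, the other FET gene in the list, was called lower at −0.12 and −0.13. Those calls were lost when any of 3 libraries of total RNA (adjusted p up to 0.078 by edgeR) or any of 4 libraries of HP RNA (up to 0.19) was left out.

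The binders of AU-rich RNA and the STAR protein gene KHDRBS1 had 0 of 5 higher and 4 lower in each RNA. FUBP1, a KH protein that binds the far upstream element of MYC and also introns, had the largest decrease of the 34. The gene (ENSG00000162613) lies at chr1:77944055-77979110 of GRCh38, minus strand. Total RNA held for FUBP1 165, 185 and 161 CPM with control siRNA and 76.8, 77.6 and 70 CPM with hnRNP U siRNA. On heavy polysomes the levels were 204, 221 and 213 CPM with control siRNA and 94.4, 97.9 and 92.6 CPM with hnRNP U siRNA. Every library with hnRNP U siRNA was below every one with control siRNA of the same RNA, and the log2 fold changes were −1.19 (SE 0.05, adjusted p = 3.1e-11 by edgeR) and −1.20 (SE 0.05, adjusted p = 9.5e-12 by edgeR). FUBP1 ranked 507 from the bottom of 15920 genes in total RNA and 567 in HP RNA. FUBP3, of the same KH family, fell in both. The gene (ENSG00000107164) lies at chr9:130578965-130638352 of GRCh38, plus strand. Levels of FUBP3 in total RNA were 123, 127 and 124 CPM with control siRNA and 96.4, 100.2 and 102 CPM with hnRNP U siRNA. HP RNA gave 166, 159 and 163 CPM with control siRNA and 104, 112 and 111 CPM with hnRNP U siRNA. Its log2 fold changes were −0.33 (SE 0.04, adjusted p = 2.7e-06 by edgeR) and −0.61 (SE 0.05, adjusted p = 3.6e-08 by edgeR), without overlap. KHSRP, the remaining gene of this family and a decay-promoting protein, did not pass the test. In total RNA KHSRP had 639, 682 and 633 CPM with control siRNA and 716, 704 and 677 CPM with hnRNP U siRNA. Its HP RNA values were 791, 824 and 795 CPM with control siRNA and 866, 904 and 867 CPM with hnRNP U siRNA. The groups overlapped in total RNA and not in HP RNA. The log2 fold changes were 0.10 (SE 0.04, adjusted p = 0.062 by edgeR) and 0.10 (SE 0.05, adjusted p = 0.098 by edgeR), and the total RNA value was called under 5 of 12 alternatives, among them DESeq2 at an adjusted p = 0.039 and the replicate number as a block at 0.022. The HP RNA value was called under 2 of 12, the block (adjusted p = 0.035 by edgeR) and the fit of all 12 libraries together (0.016).

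The counts of FUBP1 were 0.262 ± 0.00883 times those of KHSRP in total RNA with control siRNA and 0.107 ± 0.00346 times with hnRNP U siRNA, and 1.37 ± 0.0829 and 0.752 ± 0.0584 times those of FUBP3 (SD, n = 3). ELAVL1 encodes HuR, which stabilises AU-rich mRNAs, and it fell, at −0.30 and −0.26. KHDRBS1 encodes Sam68, a splicing regulator, and it was called lower at −0.13 and −0.15, calls that were lost when the third hnRNP U siRNA library was left out in total RNA (adjusted p = 0.06 by edgeR) and when the first or the third one was left out in HP RNA (up to 0.097).

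For comparison, 30 further genes of RNA-binding proteins outside the 34 were counted (31 identifiers, since MATR3 has 2). In total RNA 8 of these were higher and 8 lower, with a median log2 fold change of 0.00, and on heavy polysomes 10 were higher and 8 lower, with a median of −0.02. The largest called changes in HP RNA were those of DAZAP1 at −0.90 (SE 0.05, adjusted p = 3.5e-10 by edgeR), MSI2 at −0.88 (SE 0.06, adjusted p = 7.5e-10) and MBNL2 at −0.82 (SE 0.07, adjusted p = 1.2e-08). All 3 encode regulators of splicing, stability or translation of mRNA.

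Heavy polysomal RNA was richer in nearly all of the 34 mRNAs than total RNA. With control siRNA 33 of the 34 were higher in HP RNA and 1, PTBP3, was lower (edgeR), against 33.1% of all genes higher and 32.0% lower. With hnRNP U siRNA the counts were again 33 and 1, against 34.4% and 33.7%. The median log2 ratio of HP to total RNA was 0.68 with control siRNA and 0.70 with hnRNP U siRNA, beside −0.02 and −0.02 over all genes. Of the 3103 genes at least as abundant as the lowest of the 34, 64.6% were higher in HP RNA and 18.4% lower with control siRNA, with a median of 0.31. That set is not matched to the 34 in level, most of which are among its higher genes. TMM sets the HP-to-total ratios against the other genes of the libraries, so they are not shares of each mRNA on polysomes. For the 30 further RNA-binding genes 15 of 31 identifiers were higher and 5 lower, with a median of 0.18.

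HNRNPA2B1, HNRNPD and HNRNPAB had the highest ratios, and their CPM in each library are given above. With control siRNA the log2 ratios at each replicate number were 1.00, 1.03 and 1.10 for HNRNPA2B1, 0.93, 0.93 and 1.01 for HNRNPD and 0.95, 0.91 and 0.99 for HNRNPAB. The fitted values were 1.04 (SE 0.05, adjusted p = 4.8e-10 by edgeR) for HNRNPA2B1, 0.96 (SE 0.05, adjusted p = 7.3e-10 by edgeR) for HNRNPD and 0.95 (SE 0.05, adjusted p = 6.7e-10 by edgeR) for HNRNPAB. All 3 belong to the A/B type, whose 7 genes ranged from 0.63 to 1.04 with a median of 0.86. HNRNPA2B1 ranked 88 from the top of 15920 genes.

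PTBP3, KHSRP and FUBP1 had the lowest. The log2 ratios at each replicate number with control siRNA were −0.24, −0.16 and −0.27 for PTBP3, 0.31, 0.27 and 0.33 for KHSRP and 0.30, 0.26 and 0.40 for FUBP1, the PTBP3 values all being below 0. The fitted values were −0.22 (SE 0.05, adjusted p = 0.0018 by edgeR) for PTBP3, 0.30 (SE 0.05, adjusted p = 8.7e-05 by edgeR) for KHSRP and 0.32 (SE 0.06, adjusted p = 0.00023 by edgeR) for FUBP1. PTBP1 had 0.41 and FUBP3 had 0.38, so that the 5 genes with ratios under 0.5 were both PTB paralogues and all 3 genes of the FUBP and KHSRP family.

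**Figure D3:**
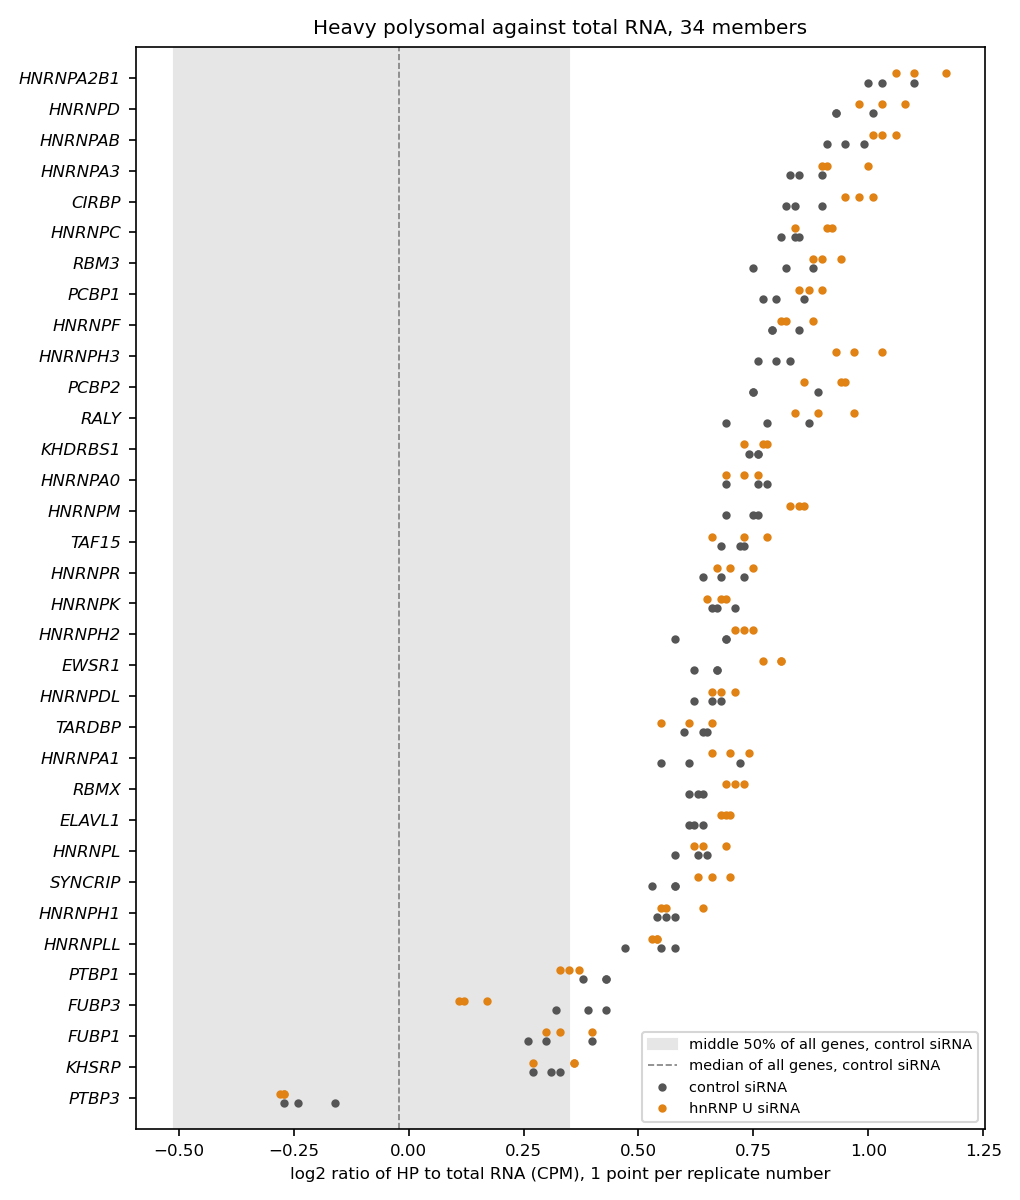
HP over total RNA (log2 ratio) for the 34 genes, in order of the fitted value with control siRNA; each point is 1 replicate number, with control siRNA in grey and hnRNP U siRNA in orange, and the band holds the middle 50% of all 15920 genes. Of the 34 genes, 29 have fitted values over 0.5 with control siRNA, PTBP3 lies below 0, and the orange points of FUBP3 lie to the left of its grey ones.

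The 5 genes with ratios under 0.5 had coding sequences of 1575 nt or more. Across the 34 genes the ratio with control siRNA and the coding length of the canonical transcript had a Spearman rho of −0.66 (n = 34), and with the 3′ UTR length it was −0.02. Over 12757 protein-coding genes the rho with coding length was −0.10. The genes are not independent points, since paralogues share length and sequence, and all share the same libraries. RBM3, with the shortest coding sequence (474 nt), had a ratio of 0.82, and KHSRP, with the longest (2244 nt), had 0.30. HNRNPM (2193 nt) had 0.73 and EWSR1 (1971 nt) 0.65, as high as genes with shorter coding sequences. The ratio had a rho of 0.36 with the mean expression level over the 34 genes and 0.32 over the 12757.

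**Figure D4:**
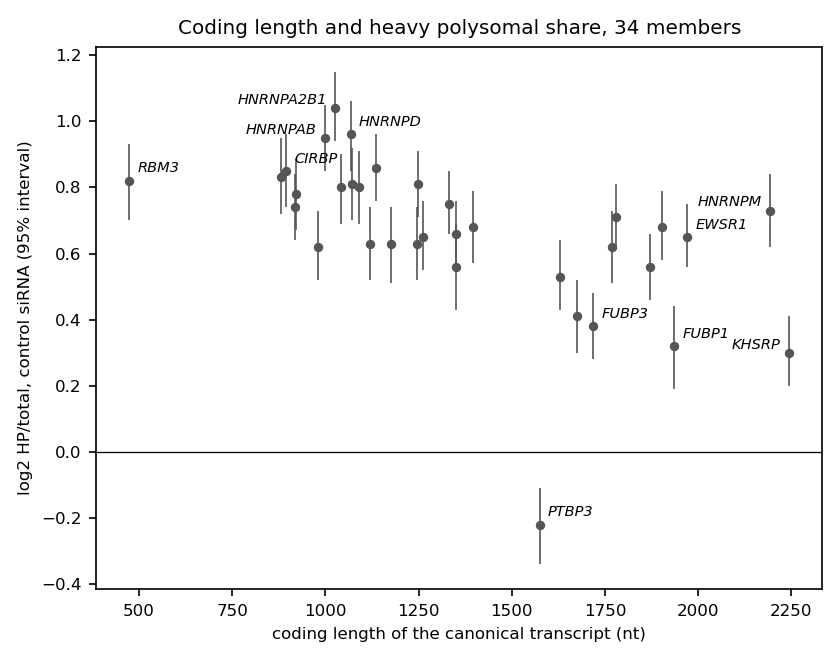
Log2 ratio of HP to total RNA with control siRNA against the coding length of the canonical transcript for the 34 genes, with 95% intervals from edgeR; 11 genes are named. Genes with coding sequences up to that of HNRNPK (1395 nt) lie between 0.56 and 1.04, and those from PTBP3 (1575 nt) upward run from −0.22 to 0.73.

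Whether silencing changed the ratio of HP to total RNA was tested as a siRNA-by-fraction interaction in 1 fit to the 12 libraries. None of the 34 genes passed the test by edgeR, 0 higher and 0 lower, where 0.0817% of all genes were called in each direction. At an unadjusted p under 0.05 there were 3 of the 34, near the 7.04% of all genes. DESeq2 called 1 of the 34, FUBP3, lower, and of the 13141 genes to which it gave an adjusted p it called 0.129% higher and 0.244% lower. The main edgeR fit had no block. With siRNA and replicate number together as a block, edgeR called FUBP3 lower and HNRNPH3 higher, beside 97 higher and 43 lower of 15920 genes. The median of the 34 was 0.06 beside 0.04 over all genes. Of the 34 values 28 were above 0, and 18 were with DESeq2's size factors, by which the median of all genes was 0.00, so that no common direction can be read from them.

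FUBP3 had the smallest p of the 34 in this comparison. Its log2 ratio of HP to total RNA was 0.43, 0.32 and 0.39 at replicates 1 to 3 with control siRNA and 0.11, 0.17 and 0.12 with hnRNP U siRNA, and the values did not overlap. The difference was −0.25 (SE 0.06, 95% interval −0.38 to −0.12, unadjusted p = 0.00072, adjusted p = 0.19 by edgeR). It was called by DESeq2 (adjusted p = 0.0057), with no filter on low counts (0.032 by edgeR), with the replicate number as a block (0.036), with siRNA and replicate number together as a block (0.013) and without the second HP library with hnRNP U siRNA (0.041), and not under the other 13 of 18 alternatives. Leaving out that library moved the median of all genes to −0.04 and left 6 of the 34 values above 0.

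HNRNPH3 and EWSR1 followed. The log2 ratio of HNRNPH3 was 0.76, 0.80 and 0.83 with control siRNA and 0.97, 1.03 and 0.93 with hnRNP U siRNA, a difference of 0.18 (SE 0.07, unadjusted p = 0.014, adjusted p = 0.51 by edgeR), which was called with siRNA and replicate number together as a block (adjusted p = 0.044). That of EWSR1 was 0.67, 0.62 and 0.67 and 0.77, 0.81 and 0.81, a difference of 0.14 (SE 0.06, unadjusted p = 0.026, adjusted p = 0.63 by edgeR). Neither pair of groups overlapped. FUBP3, HNRNPH3 and EWSR1 were named for having the smallest p here, so their lack of overlap is no further support. HNRNPAB, which was not called, also lacked overlap, at 0.95, 0.91 and 0.99 against 1.03, 1.06 and 1.01. So did HNRNPH2, HNRNPM, SYNCRIP, RBMX, CIRBP, ELAVL1 and PTBP1, none of them called. CIRBP, for one, had 0.82, 0.84 and 0.90 against 0.98, 1.01 and 0.95. Lack of overlap was therefore not particular to the 3 named genes, and its share over all genes was not computed. Others overlapped, as HNRNPK did, at 0.71, 0.66 and 0.67 against 0.68, 0.69 and 0.65. For FUBP1 and HNRNPDL, with large decreases in both kinds of RNA, the differences were 0.03 (95% interval −0.14 to 0.19) and 0.03 (−0.14 to 0.20).

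The count per gene sums over all of its transcripts. In GENCODE 44, 21 of the 34 genes have a transcript annotated as a target of nonsense-mediated decay and 23 have one with a retained intron, among them HNRNPA2B1 with 35 and TARDBP with 15 of the former, and HNRNPH1 with 8 and 19. HNRNPH3, RBM3 and RALY have 0 of the former, and HNRNPDL, HNRNPD and FUBP1 have 4, 6 and 1. A shift between coding and non-coding forms would not show in these counts and was not tested. HNRNPA2B1, HNRNPA3 and RALY overlap a gene on the opposite strand with a mean of over 1000 counts, CBX3, NFE2L2 and EIF2S2. HNRNPA1 has 74 named pseudogenes, whose summed counts were 0.339% of its own.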

How the data were processed

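Directional libraries of poly(A) RNA were read by the authors, who trimmed the reads (Trim Galore), mapped them to hg38 (STAR) and deposited raw counts per GENCODE gene, with no normalization (per the labels and methods). The submitters' notes name CASAVA 1.8. The STAR version and strand setting are not given in the sources used here. ERCC spikes are named, but the table was used without them.

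Gene names, coordinates and transcripts came from GENCODE 44 (62686 of 62703 identifiers found). edgeR 4.0.16 in R 4.3.3 was used: filterByExpr (minimum count 10), TMM, quasi-likelihood F-test, Benjamini-Hochberg over 15920 genes, threshold 0.05, 95% intervals from the fit. Total RNA, HP RNA and each HP-to-total comparison were fitted on 6 libraries, the interaction on 12. Tables came from Python 3.11.15 and SciPy 1.17.1. CPM shown are scaled over the 12 libraries together. Counts lack molecular identifiers, so depth gives counting error only, and errors are between 3 samples. Alternatives were DESeq2 1.42.0, its size factors, no filter, a stricter filter (minimum count 50), a joint fit of all libraries, blocks and leaving out each library. On simulated data with 15920 genes, edgeR called 75%, 66% and 66% of genes changed by 0.5 on the log2 scale for total RNA, HP RNA and the interaction.

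The 34 genes and the lists were chosen with earlier results of these data known. Values in every library are given for the genes with the largest change in each of the 9 types, the 3 with the smallest p in the interaction, and the 3 highest and 3 lowest ratios of HP to total RNA. HNRNPH1 was added after its values were seen. The sequence of 1 motif is not reported here.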

Additional observations from a re-analysis of the deposited data

How the results depend on the processing

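The counts of called genes stayed within 1.5 times under all alternatives for total RNA, HP RNA and both comparisons of HP with total RNA, and no called value among the 34 genes changed sign. In total RNA the leave-one-out counts were 6 to 8 higher and 15 to 19 lower, in HP RNA 6 and 15 to 17, and for HP against total RNA 32 to 33 higher and 1 lower. With all 12 libraries in 1 fit, 9 were higher and 16 lower in HP RNA. The call was the same under every alternative for 26 of the 34 genes in total RNA and 29 in HP RNA. In the interaction 1 gene, FUBP3, was called lower by DESeq2, with no filter, with the replicate block and with the replicate block by siRNA and number, and 0 to 1 with a library left out. With the replicate block by siRNA and number 1 gene, HNRNPH3, was called higher. The causes were not tested. FUBP3, called higher in HP than in total RNA with hnRNP U siRNA at 0.11, lost that call under 6 of 12 alternatives (adjusted p up to 0.44 by edgeR).

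In the titles, the 4 libraries of a replicate number share a code, which may mark a shared experiment, but no label says what it marks. Deviations from the group means correlated at −0.00376 to 0.0558 between libraries of the same number in total RNA (−0.0961 to 0.0511 for different numbers), at 0.0279 to 0.0843 in HP RNA (−0.0864 to 0.0228), and between HP and total RNA at 0.0962 to 0.134 with control siRNA (−0.0885 to −0.0392) and 0.0486 to 0.127 with hnRNP U siRNA (−0.123 to 0.00596). All 6 libraries correlated best with their own number in each of these comparisons but total RNA, where 3 of 6 did, a hint from the data that the numbers pair the libraries. In no comparison was every same-number correlation over 0.1, a limit set by choice, and the block stayed an alternative. If the numbers do pair the libraries, the main fits ignore that pairing. In the interaction the calls of FUBP3 and HNRNPH3 differ with a block. With the replicate block 8 genes were higher and 20 lower in total RNA, 7 and 17 in HP RNA, and 33 and 1 in HP against total RNA with either siRNA. In the interaction 0 were higher and 1 lower. The block added calls for PCBP2, CIRBP and KHSRP in total RNA and KHSRP in HP RNA, and lost none there.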
